A study of Ovis aries with 49 samples.

Results

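PPARG, CEBPB, FNDC3B and TMEM120A, regulators of adipocyte differentiation, were followed across 5 adipose depots of lambs at 28 and 7 days of age. They were taken by gene symbol, 4 of 9780 genes that the array annotation names, and each was read by 1 probe set, 208510_s_at for PPARG, 212501_at for CEBPB, 222693_at for FNDC3B and 223482_at for TMEM120A. Adipocytes form from mesenchymal precursors through a cascade of transcription factors. The early CCAAT/enhancer-binding proteins, CEBPB among them, are induced first and switch on PPARG, the nuclear receptor that drives the genes of lipid uptake and storage in white and brown fat. FNDC3B and TMEM120A act outside this core, and their roles in fat cells are known from mouse: FNDC3B, also called FAD104, is induced early in differentiating preadipocytes, and TMEM120A is a transmembrane protein, described at the nuclear envelope, whose loss impairs adipocyte differentiation.

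Total RNA from epicardial, perirenal, sternal, omental and subcutaneous fat was hybridised to human expression arrays, 25 at 28 days and 24 at 7 days. Each depot and age had 5 arrays, apart from subcutaneous fat at 7 days with 4. The lambs were twins of Bluefaced Leicester cross Swaledale ewes, 1 twin of each pair being taken at 7 days and its sex-matched twin, reared with the mother, at 28 days. The study fed ewes a control diet or the same diet with canola oil during lactation, but the diet is not given in the labels, where every title holds an unexplained letter C, so arrays were grouped by depot and age alone. Ages were taken from the labelled age and the sample titles, although a description common to all samples gives a different age range. Replicate numbers, written here as letters (H to O for 28 days, A to G for 7 days), are not defined as animals in the labels, although the methods take the depots of an age from the same lambs. P-values therefore measure the spread between these arrays, which were fitted as independent. Less tissue was extracted at 7 than at 28 days, and this cannot be told apart from age.

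Values are log2 signals after GCRMA, a normalization that corrects the background from probe sequence, and they run from 2.49 to 14.04 with 82.7% below 4. Sheep RNA bound to human probes, and weak binding and low expression cannot be told apart, so levels of different genes were not compared. The defining adipocyte genes measured, FABP4, LPL, CIDEC, LIPE and GPD1, lay near the lowest value, with mean levels of 2.55 to 2.88 over the 49 arrays, and only LPL passed 4, in 1 array. Matrix genes of fibroblasts were well measured, and 6 of 7 averaged above 4. The muscle creatine kinase CKM, a sign of muscle in the sample, exceeded 4 at 28 days in 4 epicardial, 3 sternal (J, N, O) and 2 subcutaneous arrays (J, M), and at 7 days in 5 epicardial, 1 sternal (D) and 3 subcutaneous arrays (A, E, G). The sternal and subcutaneous ones, 9 in all, are called the CKM-positive arrays here. Without them only replicate F is left for subcutaneous fat at 7 days, a lone array assumed to vary like the other groups, and only I and M for sternal fat at 28 days, so tests of these groups are then weak. Sternal arrays at 28 days were lower as a whole, with a mean of 5.92 over probe sets that average at least 4, against 6.27 to 6.31 in the other depots at that age. In tissue RNA, fewer cells of a type and less of a transcript per cell cannot be told apart.

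CEBPB, the early factor of the cascade, was highest in perirenal fat at both ages. At 28 days it was 10.94, 10.93, 11.10, 11.07 and 11.14 (replicates I, J, K, M and N) in perirenal fat. It was 10.64, 10.19, 10.04, 10.51 and 10.44 (replicates H, I, J, M and N) in subcutaneous and 10.16, 10.06, 10.41, 10.42 and 9.86 (replicates I, J, M, N and O) in omental fat. All 5 perirenal arrays were thus above every other array of that age, and their SD of 0.10 was the smallest of the 5 depots. CEBPB was 10.11, 9.79, 10.47, 9.50 and 9.61 (replicates I, J, M, N and O) in sternal fat and 10.08, 9.64, 10.11, 9.63 and 9.38 (replicates I, J, L, N and O) in epicardial fat. Perirenal fat exceeded the mean of the other 4 depots by 0.98 ± 0.13 (difference ± standard error, adjusted p = 0.000121 from limma), at 11.04 ± 0.10 (SD, n = 5) against a mean of 10.05 over the 4. Each single depot lay below perirenal fat. Perirenal fat was higher than sternal fat by 1.14 ± 0.17, than omental fat by 0.85 ± 0.17 and than subcutaneous fat by 0.67 ± 0.17, and epicardial minus perirenal fat was -1.27 ± 0.17 (adjusted p = 9.89e-05 to 0.0307). Below perirenal fat the order was subcutaneous, omental, sternal and epicardial, and no neighbours in it differed by the test. Epicardial fat was lower than the mean of the other 4, at a difference of -0.60 ± 0.13 (adjusted p = 0.0110), which did not pass once epicardial replicate O was left out (adjusted p = 0.0599). Most epicardial arrays also held heart muscle RNA, with 5 cardiac markers averaging 2.81 to 10.61 per array at 28 days and 7.39 to 10.90 at 7 days. The lowest, at 2.81, was close to the 2.67 to 2.78 of perirenal and omental arrays at 28 days. The part of heart muscle RNA in the epicardial levels of the regulators was not tested.

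At 7 days CEBPB kept perirenal fat on top, by a smaller margin. It was 10.80, 10.69, 10.45, 10.59 and 10.74 (replicates A, B, C, D and G) in perirenal fat, against 10.42, 10.69, 10.11, 10.25 and 10.24 (replicates B, D, E, F and G) in sternal fat. It was 10.40, 10.04, 10.11, 10.07 and 10.22 (replicates A, C, D, E and G) in omental and 10.04, 10.03, 10.40 and 9.69 (replicates A, E, F and G) in subcutaneous fat. Epicardial fat was lowest on average, with 10.30, 9.88, 9.96, 10.06 and 9.41 (replicates A, C, D, E and G). The perirenal arrays lay above all omental, subcutaneous and epicardial arrays and overlapped the sternal ones through sternal replicate D. Perirenal fat exceeded the mean of the other 4 depots by 0.54 ± 0.11 (adjusted p = 0.00740). Single depots that differed were epicardial fat, at -0.73 ± 0.14 relative to perirenal fat (adjusted p = 0.00439), and subcutaneous fat, which perirenal fat exceeded by 0.62 ± 0.15 (adjusted p = 0.0222). Omental fat missed the threshold, with perirenal fat higher by 0.49 ± 0.14 (adjusted p = 0.0517), and no neighbours in the order of the 5 depots differed by the test. The difference from subcutaneous fat is the least firm of these, since it was lost without perirenal replicate A or subcutaneous replicate G at 7 days and without perirenal replicate K, M or N or subcutaneous replicate I or J at 28 days (adjusted p up to 0.0985). At 7 days it was also lost with the arrays shifted to 1 mean and in a fit restricted to perirenal and subcutaneous arrays. Epicardial minus perirenal fat at 7 days likewise lost its call in a fit restricted to its own depots. The subcutaneous difference at 28 days was lost after quantile normalization and without the CKM-positive arrays. Leaving those out at 7 days kept only 1 subcutaneous array, which cannot decide the difference.

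No depot changed its CEBPB level between the ages by the test. Perirenal fat was higher at 28 than at 7 days by 0.38 ± 0.16 with no overlap between the ages (adjusted p = 0.148, and 0.0118 with only perirenal arrays in the fit), and sternal fat differed by -0.45 ± 0.16 (adjusted p = 0.0916). The change with age differed between depots (F test, adjusted p = 0.0431), by 0.82 ± 0.22 between perirenal and sternal fat (adjusted p = 0.0475) and by -0.77 ± 0.23 between sternal and subcutaneous fat (adjusted p = 0.0420). These passed narrowly, the F test being lost without any of 22 single arrays, the first difference without any of 27 and the second without any of 11 (adjusted p up to 0.117). The 3 sternal arrays of 28 days with CKM above 4, replicates J, N and O, were the 3 lowest for CEBPB, at 9.79, 9.50 and 9.61. At 7 days the 1 such sternal array, replicate D with CKM at 8.29, was the highest for CEBPB, at 10.69, and the part of muscle RNA was not tested. Without the CKM-positive arrays, the difference between sternal and subcutaneous fat was 0.0090 and that between perirenal and sternal fat 0.35 (adjusted p = 1 and 0.642), the first resting on 1 subcutaneous array at 7 days and both on 2 sternal arrays at 28 days. Likewise sternal fat was lower than the other 4 depots at 28 days, at a difference of -0.44 ± 0.13 (adjusted p = 0.0216, and up to 0.101 without sternal replicate J, N or O), which was -0.065 (adjusted p = 0.797) without these arrays and -0.079 (adjusted p = 0.580) once the arrays were shifted to 1 mean. CEBPB in perirenal fat at 28 days still exceeded the other 4 depots by 0.87 (adjusted p = 0.000729) without these arrays. Its difference from subcutaneous fat alone at 28 days was lost without them.

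**Figure D1:**
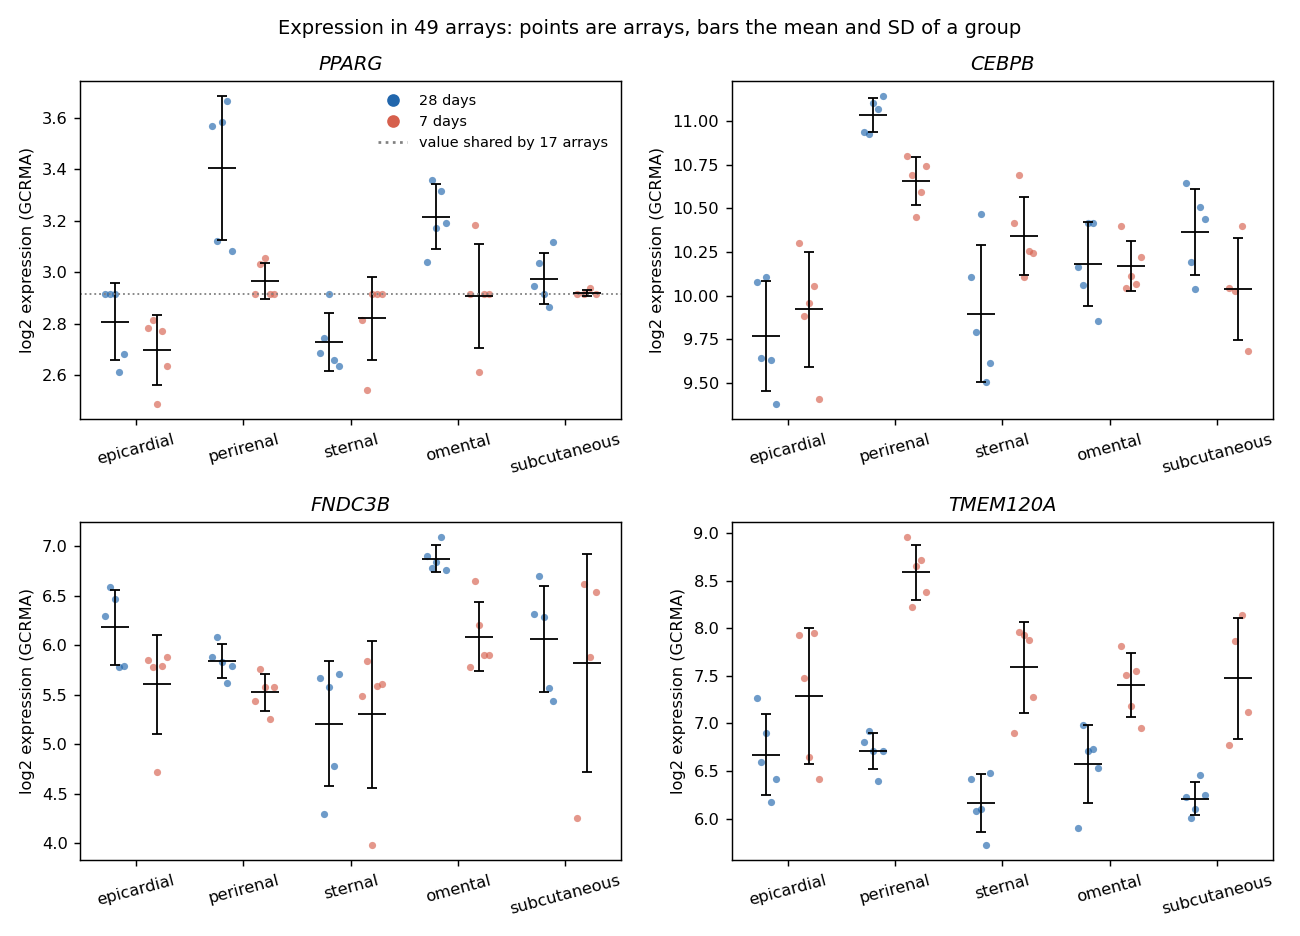
Log2 expression (vertical axes, GCRMA) of PPARG, CEBPB, FNDC3B and TMEM120A in the 5 depots (horizontal axes), with arrays at 28 days in blue on the left and at 7 days in red on the right, and bars for the mean ± SD of each group (n = 5, or 4 in subcutaneous fat at 7 days). CEBPB averages 11.04 in perirenal fat at 28 days, FNDC3B 6.88 in omental fat at 28 days and TMEM120A 8.59 in perirenal fat at 7 days, and 17 arrays share the PPARG value of 2.91 drawn as a dotted line.

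PPARG, the receptor that CEBPB induces, was read close to the lowest signal of the arrays, with a mean of 2.94 and a range of 2.49 to 3.67. The same value, 2.91, occurred in 17 of the 49 arrays, and 81.7% of all probe sets had a value shared by 10 or more arrays, so small steps of PPARG lie at the limit of the measurement. PPARG lay above the shared value in perirenal and omental fat at 28 days. It was 3.57, 3.12, 3.58, 3.67 and 3.08 (replicates I, J, K, M and N) in perirenal fat and 3.04, 3.36, 3.17, 3.32 and 3.19 (replicates I, J, M, N and O) in omental fat, so all 10 arrays lay above 2.91. In subcutaneous fat it was 2.95, 3.03, 2.91, 2.87 and 3.12 (replicates H, I, J, M and N), 3 arrays being above. None was above it in epicardial fat, with 2.91, 2.91, 2.91, 2.61 and 2.68 (replicates I, J, L, N and O), or in sternal fat, with 2.69, 2.74, 2.91, 2.66 and 2.63 (replicates I, J, M, N and O). At 7 days only 4 of 24 arrays were above it, 2 perirenal, 1 omental and 1 subcutaneous. PPARG was then 2.91, 3.03, 3.05, 2.91 and 2.91 (replicates A, B, C, D and G) in perirenal fat and 2.91, 3.18, 2.61, 2.91 and 2.91 (replicates A, C, D, E and G) in omental fat. It was 2.91, 2.91, 2.94 and 2.91 (replicates A, E, F and G) in subcutaneous fat, 2.82, 2.54, 2.91, 2.91 and 2.91 (replicates B, D, E, F and G) in sternal fat and 2.78, 2.82, 2.49, 2.77 and 2.64 (replicates A, C, D, E and G) in epicardial fat.

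The PPARG levels of the depots did not pass the F test at 7 days (adjusted p = 0.214) and did at 28 days (adjusted p = 0.000191). At 28 days perirenal fat exceeded the mean of the other 4 depots by 0.47 ± 0.081 (adjusted p = 0.00119), at 3.40 ± 0.28 (SD, n = 5). Perirenal fat was higher than sternal fat by 0.68 ± 0.10 and than subcutaneous fat by 0.43 ± 0.10, and epicardial minus perirenal fat was -0.60 ± 0.10 (adjusted p = 0.000136 to 0.0234). Omental fat was also higher than epicardial and sternal fat, whose differences from it were -0.41 ± 0.10 and -0.49 ± 0.10 (adjusted p = 0.0273 and 0.00196). In the order perirenal, omental, subcutaneous, epicardial and sternal no neighbours differed by the test. The difference between epicardial and omental fat was lost without epicardial replicate N or O or omental replicate J or N, and that between perirenal and subcutaneous fat without perirenal replicate I, K or M or subcutaneous replicate J or M (adjusted p up to 0.0810). With the replicate number as a block, both were lost (adjusted p = 0.0811 and 0.169), as was that between epicardial and perirenal fat (adjusted p = 0.0613). Without the CKM-positive arrays the differences of epicardial and sternal from omental fat and of perirenal from subcutaneous fat were lost (adjusted p = 0.0568, 0.0856 and 0.240). That between sternal and omental fat was -0.10 (adjusted p = 0.379) with the arrays shifted to 1 mean. Sternal fat was lower than the other 4, at a difference of -0.37 ± 0.081 (adjusted p = 0.00222), which was -0.012 (adjusted p = 0.899) with the arrays shifted to 1 mean and -0.31 (adjusted p = 0.157) without the CKM-positive arrays.

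Between the ages PPARG rose in perirenal and omental fat. It was higher at 28 than at 7 days by 0.44 ± 0.10 in perirenal fat (adjusted p = 0.00149), where every array of 28 days lay above every array of 7 days, and by 0.31 ± 0.10 in omental fat (adjusted p = 0.0234). The omental call was lost without omental replicate D of 7 days or J or N of 28 days, after quantile normalization (0.14, adjusted p = 0.492) and with the arrays shifted to 1 mean (0.0076, adjusted p = 0.950). In perirenal fat it was kept under both scalings, at 0.38 (adjusted p = 0.00662) and 0.31 (adjusted p = 0.0198). With only perirenal arrays in the fit its adjusted p was 0.0645. The other 3 depots differed by 0.11 in epicardial, -0.093 in sternal and 0.055 in subcutaneous fat (adjusted p = 0.698 to 0.868). The change with age differed between depots (F test, adjusted p = 0.0380), and between perirenal and sternal fat by 0.53 ± 0.14 (adjusted p = 0.0292). This was lost after quantile normalization, with shifted arrays and without any of 11 single arrays, and the F test without any of 14 (adjusted p up to 0.0799).

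FNDC3B was highest in omental fat at 28 days and lowest in sternal fat. It was 6.90, 6.78, 6.84, 7.09 and 6.76 (replicates I, J, M, N and O) in omental fat, against 5.67, 4.30, 5.58, 4.79 and 5.71 (replicates I, J, M, N and O) in sternal fat. It was 6.29, 6.59, 6.47, 5.78 and 5.79 (replicates I, J, L, N and O) in epicardial and 6.31, 6.70, 6.29, 5.57 and 5.44 (replicates H, I, J, M and N) in subcutaneous fat. The omental arrays spanned only 6.76 to 7.09 and lay above every array of the other depots at that age. Perirenal fat had 5.88, 6.09, 5.83, 5.62 and 5.79 (replicates I, J, K, M and N). Omental fat exceeded the mean of the other 4 depots by 1.05 ± 0.20 (adjusted p = 0.00249), at 6.88 ± 0.13 (SD, n = 5) against 5.82. It was higher than sternal and perirenal fat, whose differences from it were -1.67 ± 0.25 (adjusted p = 0.000102) and -1.03 ± 0.25 (adjusted p = 0.0247). Epicardial minus omental fat was -0.69 ± 0.25 (adjusted p = 0.169) and omental minus subcutaneous fat 0.81 ± 0.25 (adjusted p = 0.118), which did not pass although the arrays did not overlap. The perirenal difference was lost without omental replicate N or perirenal replicate K, M or N (adjusted p up to 0.0694) and with the replicate block (adjusted p = 0.0973). No neighbours in the order omental, epicardial, subcutaneous, perirenal and sternal differed by the test.

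Sternal FNDC3B was lower than the mean of the other 4 depots at 28 days, at a difference of -1.03 ± 0.20 (adjusted p = 0.000876), and than subcutaneous fat, at -0.85 ± 0.25 (adjusted p = 0.0294). Epicardial fat exceeded it by 0.97 ± 0.25 (adjusted p = 0.0129). The difference from subcutaneous fat was lost without sternal replicate J or N or subcutaneous replicate H, I or J (adjusted p up to 0.0907). It and the difference from epicardial fat were also lost with the replicate block (adjusted p = 0.107 and 0.0668), after quantile normalization (-0.45 and 0.52, adjusted p = 0.318 and 0.211) and without the CKM-positive arrays (-0.53 and 0.56, adjusted p = 0.327 and 0.228). The low sternal level came with a wide spread, since sternal replicates J and N, at 4.30 and 4.79, stood below the other 3. Both had CKM above 4, at 12.7 and 4.51, while sternal replicate O with CKM at 11.3 had FNDC3B at 5.71. Sternal minus the other 4 depots was -0.61 (adjusted p = 0.0392) after quantile normalization, -0.67 (adjusted p = 0.00273) with shifted arrays and -0.64 (adjusted p = 0.0956) without the CKM-positive arrays. Omental fat still exceeded the other 4 by 0.94, 0.93 and 0.92 in these settings (adjusted p up to 0.00583).

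At 7 days the depots did not pass the F test for FNDC3B (limma, adjusted p = 0.606). It was 5.79, 6.65, 6.21, 5.90 and 5.90 (replicates A, C, D, E and G) in omental and 4.25, 6.62, 5.88 and 6.54 (replicates A, E, F and G) in subcutaneous fat. It was 5.86, 5.78, 4.72, 5.79 and 5.88 (replicates A, C, D, E and G) in epicardial and 5.44, 5.77, 5.58, 5.26 and 5.58 (replicates A, B, C, D and G) in perirenal fat. Sternal fat had 5.49, 5.84, 3.99, 5.59 and 5.61 (replicates B, D, E, F and G), and groups overlapped except perirenal and omental fat, where perirenal minus omental was -0.56 ± 0.38 (adjusted p = 0.454). Single arrays were low in 3 depots, epicardial replicate D, sternal replicate E and subcutaneous replicate A, and of these only sternal replicate E had CKM below 4. However, all 5 epicardial arrays of 7 days had CKM above 4. Subcutaneous replicates E and G, with CKM at 6.35 and 11.71, had the highest FNDC3B of their group. No change with age was called for FNDC3B. In omental fat it was higher at 28 than at 7 days by 0.79 ± 0.32 with no overlap (adjusted p = 0.0985), and the other depots differed by -0.093 to 0.58.

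TMEM120A fell between the ages in 4 of the 5 depots, most in perirenal fat, where it was highest at 7 days. In perirenal fat it was 6.80, 6.92, 6.72, 6.40 and 6.72 (replicates I, J, K, M and N) at 28 days, against 8.96, 8.23, 8.66, 8.71 and 8.38 (replicates A, B, C, D and G) at 7 days. In sternal fat it was 6.42, 6.08, 6.10, 5.73 and 6.48 (replicates I, J, M, N and O) at 28 days, against 6.90, 7.96, 7.93, 7.88 and 7.27 (replicates B, D, E, F and G) at 7 days. The ages did not overlap in either depot. In subcutaneous fat it was 6.23, 6.01, 6.10, 6.46 and 6.25 (replicates H, I, J, M and N) at 28 days, against 6.77, 7.87, 8.14 and 7.12 (replicates A, E, F and G) at 7 days, again with no overlap. In omental fat it was 5.90, 6.99, 6.72, 6.73 and 6.53 (replicates I, J, M, N and O) at 28 days, against 7.81, 7.51, 7.18, 7.55 and 6.95 (replicates A, C, D, E and G) at 7 days, where replicate J of 28 days reached above replicate G of 7 days. In epicardial fat it was 7.26, 6.60, 6.90, 6.17 and 6.42 (replicates I, J, L, N and O) at 28 days, against 7.93, 7.47, 6.65, 7.95 and 6.42 (replicates A, C, D, E and G) at 7 days, and the ages overlapped widely.

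The difference of 28 minus 7 days in TMEM120A was -1.88 ± 0.26 in perirenal fat (adjusted p = 1.52e-06), -1.43 ± 0.26 in sternal fat (adjusted p = 0.000155), -1.26 ± 0.27 in subcutaneous fat (adjusted p = 0.00221) and -0.83 ± 0.26 in omental fat (adjusted p = 0.0236). Epicardial fat differed by -0.62 ± 0.26 and was not called (adjusted p = 0.188). The perirenal, sternal, omental and subcutaneous falls were kept under both scalings, at -2.09, -1.33, -1.03 and -1.38 after quantile normalization. Without the CKM-positive arrays the sternal fall was -1.24 (adjusted p = 0.0302) and the subcutaneous one -1.98 (adjusted p = 0.00807), against a single array at 7 days. The change with age did not differ between depots by the F test (adjusted p = 0.0862), so the size of the fall is not shown to be particular to a depot. With only 1 depot in the fit the subcutaneous fall did not pass (adjusted p = 0.0795). The omental call was lost without omental replicate A or E of 7 days or replicate I of 28 days (adjusted p up to 0.101).

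**Figure D2:**
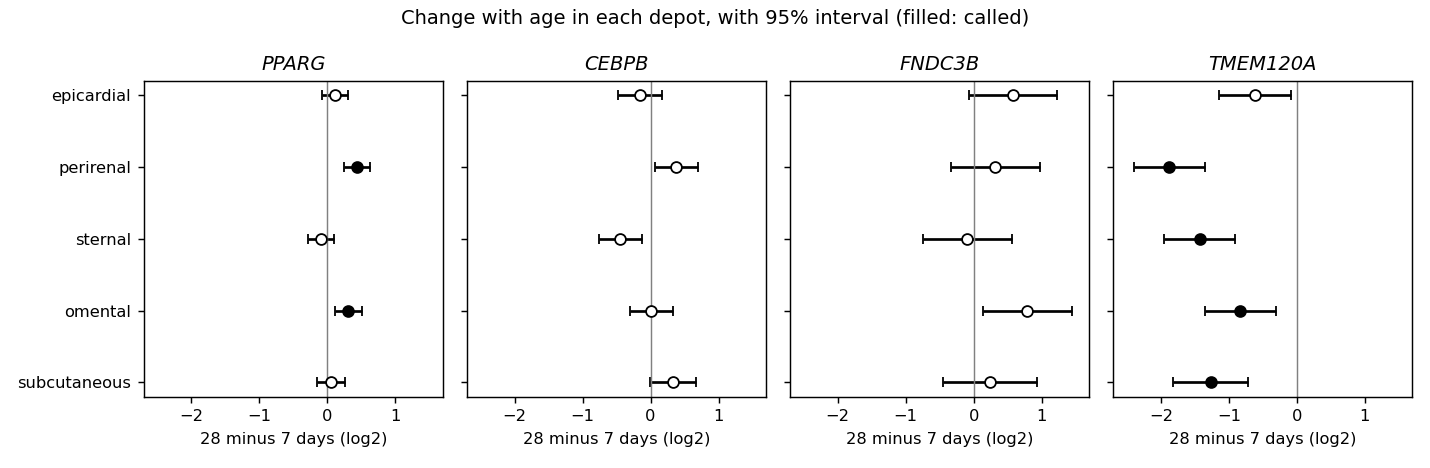
Difference of 28 minus 7 days in log2 expression (horizontal axes) for each regulator in each depot (vertical axis), with 95% confidence intervals from the fit over all arrays and filled points for differences called at an adjusted p of at most 0.05. TMEM120A lies below 0 in all 5 depots and is called in 4, and PPARG is called above 0 in perirenal fat at 0.44 and omental fat at 0.31.

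At 7 days TMEM120A in perirenal fat exceeded the mean of the other 4 depots by 1.15 ± 0.25 (adjusted p = 0.00762), at 8.59 ± 0.29 (SD, n = 5) against 7.44, and its 5 arrays lay above all others at that age. The depots differed by the F test (adjusted p = 0.0380), lost without any of 6 single perirenal or omental arrays (adjusted p up to 0.121). Epicardial minus perirenal fat was -1.30 ± 0.31 (adjusted p = 0.0236), and perirenal fat exceeded omental fat by 1.18 ± 0.31 (adjusted p = 0.0280). Both calls were lost without perirenal replicate A or D (adjusted p up to 0.0836 and 0.0751), and also without epicardial replicate D or G for the first and without omental replicate D or G or perirenal replicate C for the second. Perirenal fat exceeded subcutaneous fat by 1.11 ± 0.33 (adjusted p = 0.0568) and sternal fat by 1.00 ± 0.31 (adjusted p = 0.111), which did not pass. The depots sternal, subcutaneous, omental and epicardial, in this order, averaged 7.59, 7.47, 7.40 and 7.29, and no neighbours in the order of the 5 depots differed by the test. At 28 days the depots averaged 6.16 to 6.71 and did not pass the F test (adjusted p = 0.0800).

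Markers of brown adipocytes moved with TMEM120A in some depots. UCP1, the uncoupling protein of brown fat, averaged 2.91 in perirenal fat at 28 days, against 6.29 at 7 days, where it spanned 5.51 to 8.22. In sternal fat it averaged 2.90 at 28 days, against 4.46 at 7 days. Of the 3 brown adipocyte genes measured, UCP1 and PPARGC1A were lower at 28 than at 7 days in both depots, while CIDEA stayed below 4 in every array. PPARGC1A, a coactivator of PPARG and of thermogenesis, was also lower in epicardial fat, at -1.25 (adjusted p = 0.0154), where TMEM120A was not called. Epicardial UCP1 differed by -1.14 with no overlap between the ages, and missed the threshold (adjusted p = 0.0538 from limma). In omental fat TMEM120A was called lower, while UCP1 differed by -0.74 and PPARGC1A by -0.13, neither called (adjusted p = 0.184 and 0.899). In subcutaneous fat UCP1 was 2.91 in all arrays at 28 days and 2.49 to 2.99 at 7 days, near the lowest value at both ages, while TMEM120A differed there by -1.26. The part of these markers in the TMEM120A differences was not tested.

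**Figure D3:**
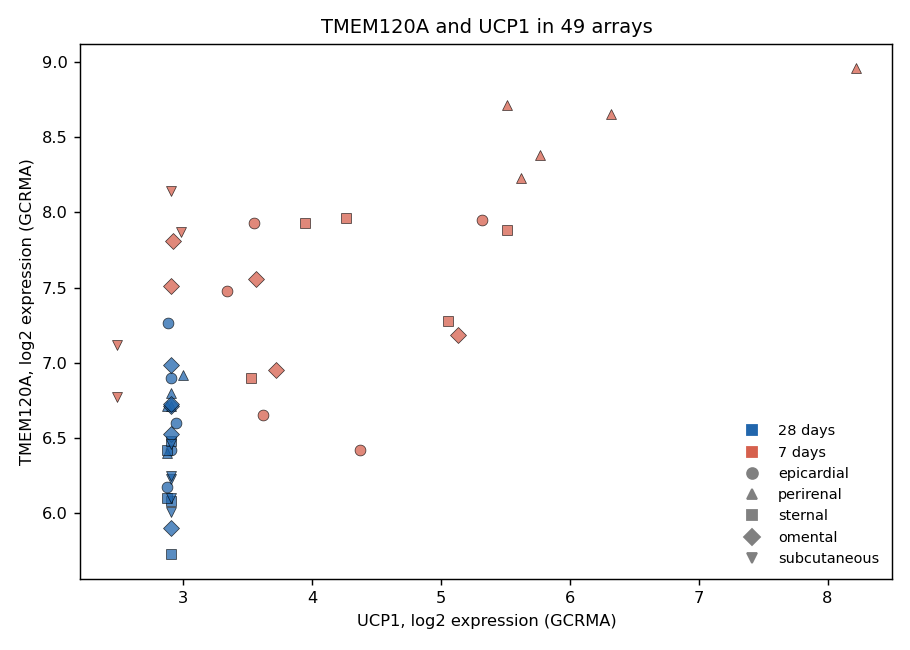
Log2 expression of TMEM120A (vertical axis) against UCP1 (horizontal axis) in the 49 arrays, with blue symbols for 28 days, red symbols for 7 days and a symbol shape for each depot. The 5 perirenal arrays of 7 days lie at the upper right, with UCP1 at 5.51 to 8.22, and the 4 subcutaneous arrays of 7 days lie at UCP1 of 2.49 to 2.99 with TMEM120A at 6.77 to 8.14.

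Counted over the 4 regulators, the F test over depots called CEBPB and TMEM120A at 7 days (2 of 4, against 8.16% of all 10273 probe sets) and PPARG, CEBPB and FNDC3B at 28 days (3 of 4, against 20%). At 7 days 4 of the 40 comparisons of a regulator in a pair of depots were called, against 2.6% over all probe sets, and 13 of 40 at 28 days, against 6.86%. With the replicate block they numbered 8 and 7. All 4 at 7 days involved perirenal fat, and at 28 days 8 of 13 did. Over all probe sets, pairs with perirenal fat were called in 1.85% to 5% at 7 days, and the other pairs in 0.204% to 4.18%. At 28 days these shares were 2.16% to 13.6% and 2.08% to 15.7%. Against the mean of the other 4 depots 2 of 20 comparisons were called at 7 days (background 2.69%) and 7 of 20 at 28 days (background 6.96%). Of these 7, 3 were lower levels in sternal fat, a comparison in which 18.4% of all probe sets were called lower. Between the ages 6 of 20 were called (background 9.07%), 2 of PPARG, higher at 28 days, and 4 of TMEM120A, lower. The change with age differed between depots by the F test for PPARG and CEBPB (2 of 4, against 9.17%), and pairs of depots differed in it in 3 of 40 comparisons (background 2.39%). It was called in none of them after quantile normalization or with shifted arrays, where the F test of that difference also called 0 of 4 regulators.

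Across the 49 arrays the levels of PPARG and CEBPB correlated at r = 0.58, and the other 5 pairs of regulators at -0.11 to 0.33. After group means were subtracted, CEBPB and TMEM120A correlated at 0.43 and PPARG and CEBPB at 0.12. The arrays share depots, ages and overall signal, so these are descriptions. The genes most like each regulator over the 49 arrays, among those averaging at least 4, were HINT2 (r = 0.86), MGST3 (0.83) and MTCH2 (0.83) for TMEM120A, of which HINT2 and MTCH2 encode mitochondrial proteins and MGST3 a microsomal glutathione transferase. CEBPB was most like DHRS7 (0.74), a dehydrogenase gene, CSNK2A1 (0.70), a catalytic subunit of casein kinase, and PDE3B (0.67), the phosphodiesterase by which insulin restrains lipolysis. FNDC3B was most like the splicing factor gene TRA2B (0.69), HNRNPA0 (0.68) and the zinc transporter gene SLC30A5 (0.67), and PPARG, near the lowest signal, most like ANP32A (0.78), MYL6 (0.73) and CHRDL1 (0.73), a secreted inhibitor of bone morphogenetic proteins. With group means subtracted the lists changed, to TECR (0.73), TMBIM6 (0.70) and HSD17B10 (0.64) for TMEM120A and BCAM (0.65), HSD17B10 (0.63) and UBE2Q1 (0.59) for CEBPB. For FNDC3B they were then SRI (0.68), RPS23 (0.63) and TXLNG (0.63), and for PPARG PPM1G (0.62), GPM6B (0.57) and APPBP2 (0.57).

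Among other transcription factors that promote adipogenesis, several rose with age. Of 17 measured of 24 listed, 7 were higher and 1 was lower at 28 than at 7 days in perirenal fat, with a median difference of 0.31 against 0.010 over all probe sets, of which 6.23% were called higher and 3.09% lower. NR3C1, the glucocorticoid receptor that starts adipocyte differentiation in culture, averaged 10.67 at 28 days and 9.58 at 7 days, a difference of 1.09 ± 0.16 (adjusted p = 8.71e-06). ZNF423, a zinc finger factor of committed preadipocytes, differed by 1.07 ± 0.19, and KLF6, a Krüppel-like factor that represses DLK1, by 0.92 ± 0.17. The lower one was NR1H3, the liver X receptor alpha, at -0.62 ± 0.19 (adjusted p = 0.0275). After quantile normalization 6 were higher and 1 lower, and with shifted arrays 5 and 1. ZNF423 was higher at 28 days in all 5 depots, by 0.65 to 1.30, although the subcutaneous call was lost with shifted arrays (0.46, adjusted p = 0.103) and without the CKM-positive arrays. In perirenal fat at 28 days, where PPARG and CEBPB were highest, 3 of the 17 exceeded the other 4 depots and 0 were lower, against 2.87% of probe sets called higher. They were NR3C1 by 0.54 ± 0.13, KLF6 by 0.49 ± 0.11 and NR1H3 by 0.41 ± 0.11, of which NR1H3 was lost under both scalings and NR3C1 and NR1H3 without the CKM-positive arrays (adjusted p = 0.0580 and 0.0771). In epicardial fat at 7 days 5 of the 17 were lower than in the other 4 depots and 0 higher, against 0.72% of probe sets called lower, among them ZNF423 at -0.84 ± 0.14, KLF4, induced early in differentiation, at -0.71 ± 0.16 and EBF1, a factor of adipocyte precursors, at -0.64 ± 0.17. The epicardial arrays of 7 days also held heart muscle RNA, with a mean level of 5 cardiac markers of 7.39 to 10.90, against 2.67 to 2.95 in perirenal, sternal and omental fat. That mean reached up to 7.38 in subcutaneous fat, but the marker TNNI3 stayed below 4 there on every array. TNNI3 averaged 2.74 in subcutaneous and 10.25 in epicardial fat at 7 days. The part of heart muscle RNA in these differences was not tested.

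**Figure D4:**
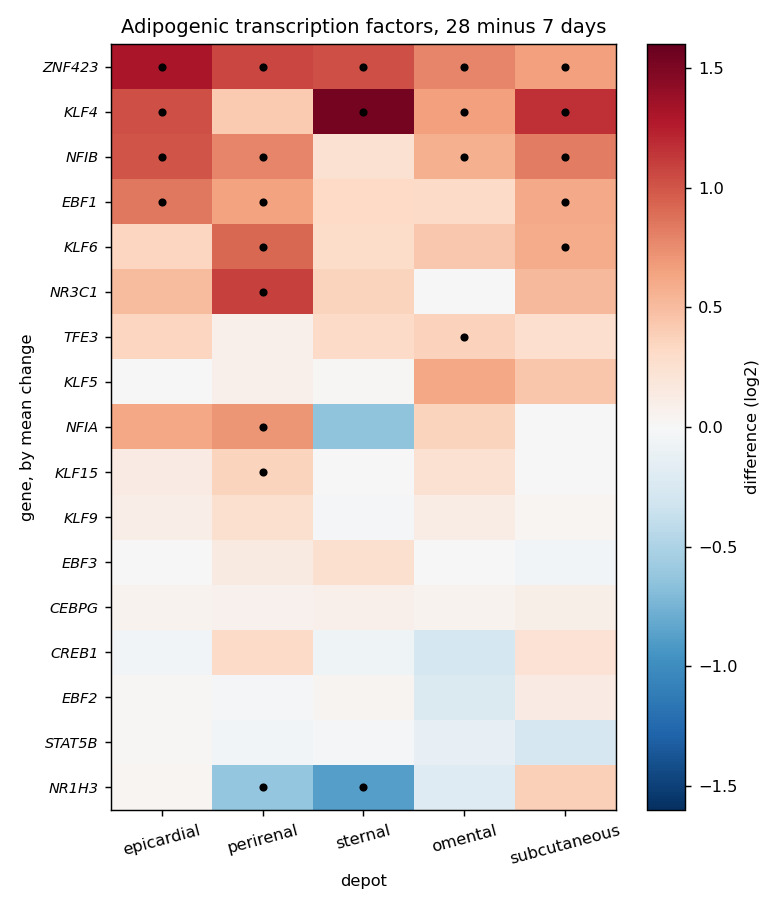
Difference of 28 minus 7 days in log2 expression (colour, red for higher and blue for lower at 28 days) for the 17 measured adipogenic transcription factors (vertical axis, ordered by their mean change) in the 5 depots (horizontal axis), with a dot where the difference was called at an adjusted p of at most 0.05. ZNF423 carries a dot in every depot, and perirenal fat holds 8 dots, 7 of them for a rise.

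Some inhibitors of adipogenesis were also higher at the later age. Of 18 measured of 22 listed, 5 were higher and 0 lower at 28 than at 7 days in omental fat (median 0.24 against 0.061 over all probe sets, 13.5% called higher) and 4 higher and 0 lower in perirenal fat (median 0.093 against 0.010 over all probe sets, 6.23% called higher and 3.09% lower). KLF7, a Krüppel-like repressor of adipogenesis, differed by 1.18 ± 0.22 in perirenal and 1.14 ± 0.22 in omental fat, LRP6, a Wnt co-receptor, by 0.76 ± 0.18 and 0.57 ± 0.18, HES1, a Notch effector, by 0.70 ± 0.12 in perirenal fat, and WWTR1, a coactivator that represses PPARG, by 0.86 ± 0.11 in omental fat. In omental fat 2 were higher after quantile normalization, and with shifted arrays 2 were higher and 5 lower, a scaling that moved the median of all probe sets there to -0.24. DLK1, the preadipocyte factor that holds back differentiation, averaged 4.82 in epicardial fat at 28 days and 3.72 at 7 days (1.10 ± 0.27, adjusted p = 0.00888), and exceeded the other 4 depots at 28 days by 1.40 ± 0.24 (adjusted p = 0.00101, the 1 inhibitor called there, against 2.74% of probe sets called higher). TRIB2, a kinase-like repressor of the C/EBP factors, differed between sternal fat and the other 4 depots at 28 days by -0.70 ± 0.094 (adjusted p = 1.88e-05). In that comparison 18.4% of all probe sets were called lower, with a median of -0.074, and TRIB2 was picked after its value was seen.

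Some partners and coregulators of PPARG were lower in sternal fat at 28 days, 5 of 14 measured of 20 listed with 0 higher, against 18.4% of probe sets called lower, and their median of -0.25 compares with -0.074 over all probe sets. NCOA1, a coactivator of nuclear receptors, differed by -0.88 ± 0.11 (adjusted p = 1.05e-05), MED1, the Mediator subunit that binds PPARG, by -0.46 ± 0.13 and the acetyltransferase gene CREBBP by -0.39 ± 0.12. The count depended on the overall level of the sternal arrays, since 1 was lower after quantile normalization, and with shifted arrays, which moved the median of all probe sets to 0.29, 5 were higher and 1 lower. Of these 3 genes CREBBP and MED1 were then no longer called. In epicardial fat 4 were higher at 28 than at 7 days and 0 lower, against 4.21% of probe sets called higher, led by the histone methyltransferase genes KMT2D at 1.03 ± 0.15 and KMT2C at 0.62 ± 0.12, with NCOA1 at 0.49 ± 0.14, which was lost under both scalings. The coactivator PPARGC1A, counted with the brown adipocyte genes and not in this list, was called lower there, at -1.25 (adjusted p = 0.0154 from limma).

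Genes that PPARG switches on in mature adipocytes were mostly near the lowest signal, and 4 of 18 measured of 27 listed averaged at least 4. In perirenal fat at 28 days, where PPARG was highest, 1 of the 18 was higher than in the other 4 depots and 0 lower, namely CD36, a fatty acid transporter, by 0.66 ± 0.16 (adjusted p = 0.0227, and 0.0602 without the CKM-positive arrays), with a median of 0.028 against 0.0031 over all probe sets, of which 2.87% were called higher. In omental fat at 28 days 3 were higher and 0 lower, SCD, the stearoyl-CoA desaturase, by 1.32 ± 0.37, CD36 by 0.60 ± 0.16 and FASN, the fatty acid synthase, by 0.31 ± 0.075, against 4.76% of probe sets called higher. All 3 calls were lost under quantile normalization (adjusted p = 0.0848 to 0.305) and with shifted arrays. In epicardial fat at 7 days 4 were lower and 0 higher, against 0.72% of probe sets called lower, led by SCD at -2.38 ± 0.48, DGAT2, an enzyme of triglyceride synthesis, at -1.31 ± 0.28 and CD36 at -0.95 ± 0.15. These are the arrays in which the cardiac markers averaged 7.39 to 10.90, and the part of heart muscle RNA was not tested. SCD fell with age in subcutaneous fat, to 6.24 at 28 days against 9.17 at 7 days (-2.94 ± 0.58, adjusted p = 0.000853), the 1 target called lower there against 1.57% of probe sets. In sternal fat 2 were lower, SCD by -2.47 ± 0.55 and ABHD5, the coactivator of triglyceride lipase, by -1.18 ± 0.21, against 3.89%, and no target was higher at 28 days in perirenal fat, where 1 was lower, ABHD5 by -0.73 ± 0.21, against 6.23% of probe sets called higher and 3.09% lower. CKM exceeded 4 in 3 of 4 subcutaneous arrays and 1 sternal array at 7 days, and in 2 subcutaneous and 3 sternal arrays at 28 days. The part of muscle RNA in the subcutaneous and sternal falls was not tested.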

How the data were processed

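RNA of 5 adipose depots of lambs was measured on 49 human arrays. Per the labels and methods, the authors normalized the arrays by GCRMA, using affy according to the submitters' processing notes (versions not given in the sources used here), and deposited log2 values of 10273 probe sets, left after a filter. A single gene symbol belongs to 9780 of them, several to 6 and none to 487, and no symbol lies on more than 1 probe set. The highest correlation of 2 arrays was 0.990. For arrays, their number limits the precision.

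Tests used limma 3.58.1 in R 4.3.3, fitting the 5 depots of an age together for depot comparisons and all 10 groups for changes with age, and Benjamini-Hochberg adjustment over all probe sets within each comparison. A difference was called at an adjusted p of at most 0.05. The procedure was tested on simulated data. The replicate number was fitted as a block as an alternative, since the labels do not define the number. In their deviations from group means, same-numbered arrays correlated more on average than arrays of different numbers. The means were 0.044 against -0.0073 at 7 days and 0.0765 against -0.0143 at 28 days. Calls lost with the block are given beside the results. Other alternatives were quantile normalization, arrays shifted to 1 mean, testing only the 1752 probe sets whose mean reached 4, a trended robust variance, other samples in the fit and leaving out each array. Leaving out the 9 CKM-positive arrays was chosen after seeing the data.

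The 4 regulators and the gene lists were chosen with earlier results of these data known. Of each list the text names called genes with the 3 largest changes in the comparison described, and for each regulator the 3 most correlated genes. Names outside this rule (NR1H3, ABHD5, HES1 and WWTR1 beside larger changes in another depot, TRIB2 and DLK1, and ZNF423 over depots) were chosen after their values were seen. No sequence is printed.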

Additional observations from a re-analysis of the deposited data

Results flagged for a closer look

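Among the 40 groups of a regulator in a depot at an age, 4 held 1 array far from the others by Dixon's test, which chance alone flags in about 1 of 20 groups. FNDC3B was 3.99 in sternal replicate E at 7 days, where the other 4 arrays lay between 5.49 and 5.84, and 4.72 in epicardial replicate D at 7 days, where the other 4 lay between 5.78 and 5.88. PPARG was 2.54 in sternal replicate D at 7 days, against 2.82 to 2.91 in the other 4, and 2.94 in subcutaneous replicate F at 7 days, against 2.91 in the other 3, steps at the lowest signal of the arrays. Those other 3 subcutaneous arrays share 1 value, so any different value in replicate F would have been flagged. The rate of 1 of 20 does not hold for such repeated values. The change with age differed between depots for PPARG by 0.53 between perirenal and sternal fat, and for CEBPB by 0.82 between perirenal and sternal fat and by -0.77 between sternal and subcutaneous fat, each by a test of the difference itself in limma.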

How the results depend on the processing

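Of 35 differences of the 4 regulators that were called, 6 lost their call with the replicate block, 8 after quantile normalization, 9 with the arrays shifted to 1 mean, 1 with a trended robust variance, 12 without the 9 CKM-positive arrays (sternal or subcutaneous, with CKM over 4), and 15 without some single array. Beside the 12, 1 further call was not kept without the CKM-positive arrays, since that difference turned its sign. Leaving out the CKM-positive arrays left 1 subcutaneous array at 7 days, assumed to vary like the other groups. With all 49 arrays in 1 fit 2 of 26 and with fits restricted to the depots compared 14 of 26 lost it, and of 25 tested over the probe sets whose mean reached 4, 0 did. The replicate block gave 8 calls in pairs of depots at 7 days and 7 at 28 days, against 4 and 13 without it. Same-numbered arrays correlated by 0.044 on average at 7 days and 0.0765 at 28 days in their deviations from group means, over 0.1 in 6 of 33 and 12 of 39 pairs. Arrays of different numbers correlated by -0.0073 and -0.0143 on average, over 0.1 in 15 of 197 and 12 of 211 pairs. The labels do not say whether a number is an animal. Calls in pairs of depots at 7 days numbered 9 with shifted arrays, 8 over the probe sets whose mean reached 4, 7 with all arrays in 1 fit and 2 with only the depots compared. Those at 28 days numbered 8 with only the depots compared and 8 without the CKM-positive arrays. Calls against the other 4 depots numbered 4 at 7 days with shifted arrays and 4 at 28 days without the CKM-positive arrays. The F test of the difference in the change with age called 0 regulators after quantile normalization, with shifted arrays, with a trended robust variance and without the CKM-positive arrays. The F tests over depots, summed over both ages, gave 10 calls for adipogenic factors, 6 for inhibitors, 10 for partners and 7 for targets. At each age 17, 18, 14 and 18 genes of these lists were tested, and 8.16% and 20% of all probe sets were called at 7 and 28 days. With shifted arrays factors, inhibitors and targets gave 23, 17 and 19 calls, and the share of all probe sets under that scaling is not given here. Over the probe sets whose mean reached 4 inhibitors gave 3.

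Leaving out 1 array gave 1 to 2 regulators past the F test at 7 days and 3 to 4 at 28 days, 1 to 6 and 10 to 15 calls in pairs of depots, 2 to 3 and 6 to 8 against the other 4, 5 to 7 between the ages and 0 to 3 for the difference in that change, and 8 to 12 calls for adipogenic factors, 6 to 8 for inhibitors, 7 to 11 for partners and 6 to 8 for targets. Directions of differences that were not called turned in a few cases. PPARG in subcutaneous fat, 28 minus 7 days, was -0.059 after quantile normalization and -0.14 with shifted arrays. CEBPB in omental fat was -0.074 and -0.29 in these settings, and -0.045 to 0.095 with 1 array left out, below 0 without omental replicate C, D, E, M or N. FNDC3B in sternal fat was 0.0091 after quantile normalization, -0.42 to 0.13 with 1 array left out, above 0 without replicate D, J or N, and 0.46 without the CKM-positive arrays, and in subcutaneous fat -0.28 to 0.51, below 0 without replicate A. Without the CKM-positive arrays CEBPB in sternal fat was 0.033, and the called difference in the change with age between sternal and subcutaneous fat was 0.0090. The cause was not tested. Most values lie near the lowest signal, which limits what PPARG, its relatives and its targets can show.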

Other observations

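Of 10 relatives of the regulators listed, 6 were measured, and none averaged 4 or more, so these values are close to the lowest signal. PPARD, the PPAR subtype expressed in most tissues, was lower in perirenal fat at 28 days, at 2.59, than at 7 days, at 3.06 (-0.48 ± 0.10, adjusted p = 0.00113 from limma), while PPARG was higher there. PPARA was not called in any depot against the other 4 or between the ages. FNDC3A, the paralogue of FNDC3B, averaged 2.91 in omental fat at 7 days, higher than the mean of 2.56 over the other 4 (adjusted p = 0.00166), and omental fat was lower at 28 than at 7 days by -0.35 ± 0.10 (adjusted p = 0.0165), where FNDC3B differed by 0.79 and was not called. FNDC5, the irisin precursor, differed between sternal fat and the other 4 depots at 28 days by -0.95 ± 0.15 (adjusted p = 8.79e-05), and by -0.71 (adjusted p = 0.0623) without the CKM-positive arrays.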
